A study of Mus musculus with 6 samples.

Results

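The ATP-binding cassette (ABC) family was examined in fetal mouse lungs labelled as an epithelial knockout of Smad1 and in wild type lungs. Its members were all genes whose array symbol is Abca, Abcb, Abcc, Abcd, Abce, Abcf or Abcg followed by a number and, in some, a letter, with Abca3 left out, and each gene was read by its brightest probe set. This gave 44 of the 18193 genes with a probe set of their own: 13 Abca, 8 Abcb, 10 Abcc, 3 Abcd, 1 Abce, 3 Abcf and 6 Abcg genes. The study used the left lung lobe at E18.5, shortly before birth, of C57/BL6 mice. The first group was 3 embryos labelled as carrying a conditional knockout of Smad1 in the lung epithelium (Smad1 CKO), and the second was 3 wild type embryos. The labels describe them as 3 pairs of one CKO and one wild type mouse. The labels name no Cre driver, floxed allele or deleted part of Smad1, and a whole lobe contains many cells that are not epithelial. Each lobe was hybridised to 1 Affymetrix Mouse430_2 array, and levels are given as log2(intensity + 1).

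ABC proteins bind and hydrolyse ATP, and most use it to carry a substrate across a membrane. Full transporters hold both ATP-binding domains and both membrane domains in a single chain, while others are shorter chains that work as dimers. Members of the Abca and Abcg subfamilies mostly move lipids and sterols, and in the lung such transporters load surfactant lipid into lamellar bodies and release cholesterol from macrophages. Many Abcb and Abcc members export drugs, bile salts and conjugates. Abcc8 and Abcc9 transport nothing themselves and regulate ATP-sensitive potassium channels. Abcd proteins sit in peroxisomes or lysosomes, and Abce and Abcf proteins have no membrane part and act on ribosomes and translation.

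The arrays were not alike in quality. Median intensity ran from 69.96 to 77.8 per array. Smad1 CKO 3 had a mean of 2194 over its 18S ribosomal RNA control probe sets, against 154.0 to 201.0 on the other arrays, and a mean of 4187 over the beta-actin controls, against 14693 to 17861. Smad1 CKO 1 had a level of 10.95 for the X-inactivation transcript Xist, against 6.07 to 7.70 on the other arrays, and of 3.78 for the Y-linked Eif2s3y, against 7.06 to 9.04, so sex and genotype cannot be told apart in pair 1. Smad1 itself was at 10.12, 10.62 and 9.05 in CKO lungs and at 10.004, 10.09 and 9.53 in wild type lungs, and these ranges overlapped. After cyclic loess normalization, which evens out differences that depend on brightness, Smad1 was higher in the CKO lung of every pair, by 0.42, 0.56 and 0.76 (mean 0.58, limma, unadjusted p = 0.00919, adjusted p = 0.336). Of all genes, 23.6% were then higher in every pair. As deposited, the Smad1 difference was 0.06 without a common direction. Before and after cyclic loess, Smad1 was read by its brightest probe set alone. By this probe set, the Smad1 values after cyclic loess go against the genotype label, although the deleted part is unnamed and the lobe holds other cells. CKO and wild type therefore stand for the labels wherever a direction is given. Sftpc, which marks alveolar type 2 cells, was at 13.95, 14.15 and 12.22 in CKO lungs and at 14.46, 14.42 and 14.31 in wild type lungs, and the endothelial marker Pecam1 was between 8.78 and 10.74 in CKO and between 10.73 and 11.22 in wild type lungs, so markers of lung were present on every array. All p-values below rest on these 6 samples alone, and 3 arrays per genotype limit the precision. Unless a fit without pairs is named, they measure the spread of the pair differences, which limma moderates over all probe sets.

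No ABC gene passed the test across the array. With the pair as a block, 0 of 44 members had an adjusted p under 0.05 (limma, Benjamini-Hochberg over 45037 probe sets, lowest adjusted p = 0.367), where 0.00222% of all probe sets did. An unadjusted p under 0.05 was reached by 3 members that were lower in CKO lungs, Abcb1a, Abcg2 and Abca7, where 9.96% of all genes did so. It was reached by 2 that were higher, Abcc8 and Abcb4, where 4.96% did so. In all 3 pairs 14 members were lower in the CKO lung, against a background of 29.3% of genes, and 8 were higher, against a background of 21%, while 22 had no common direction. The 14 are 31.8% of the family and the 8 are 18.2%, so both shares lay near those of the other genes on the array. The arrays of the 2 genotypes did not overlap for 2 members, Abcb1a and Abca13, both lower in CKO lungs, where 6.05% of genes lay wholly lower, and for 0 members in the other direction, where 4.25% of genes lay wholly higher. The median difference of the members, CKO minus wild type, was -0.12, against -0.09 over all genes.

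The intervals of the differences hold for the deposited values and the probe sets used, and do not cover the choice of normalization or probe set. Cyclic loess normalization, for one, moved Abca1 from -0.72 to -0.13 and Abcg1 from -0.05 to 0.39. The 95% interval of the difference had a width to each side of 0.45 to 0.98, with a median of 0.53 (log2). For 30 of 44 members the whole interval lay within a 2-fold difference in either direction, and for the other 14 it reached past it. The SD between wild type arrays had a median of 0.19 over the members, and between CKO arrays it was 0.47, larger in CKO lungs for 38 members. The same was seen in 90.4% of all genes.

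**Figure D1:**
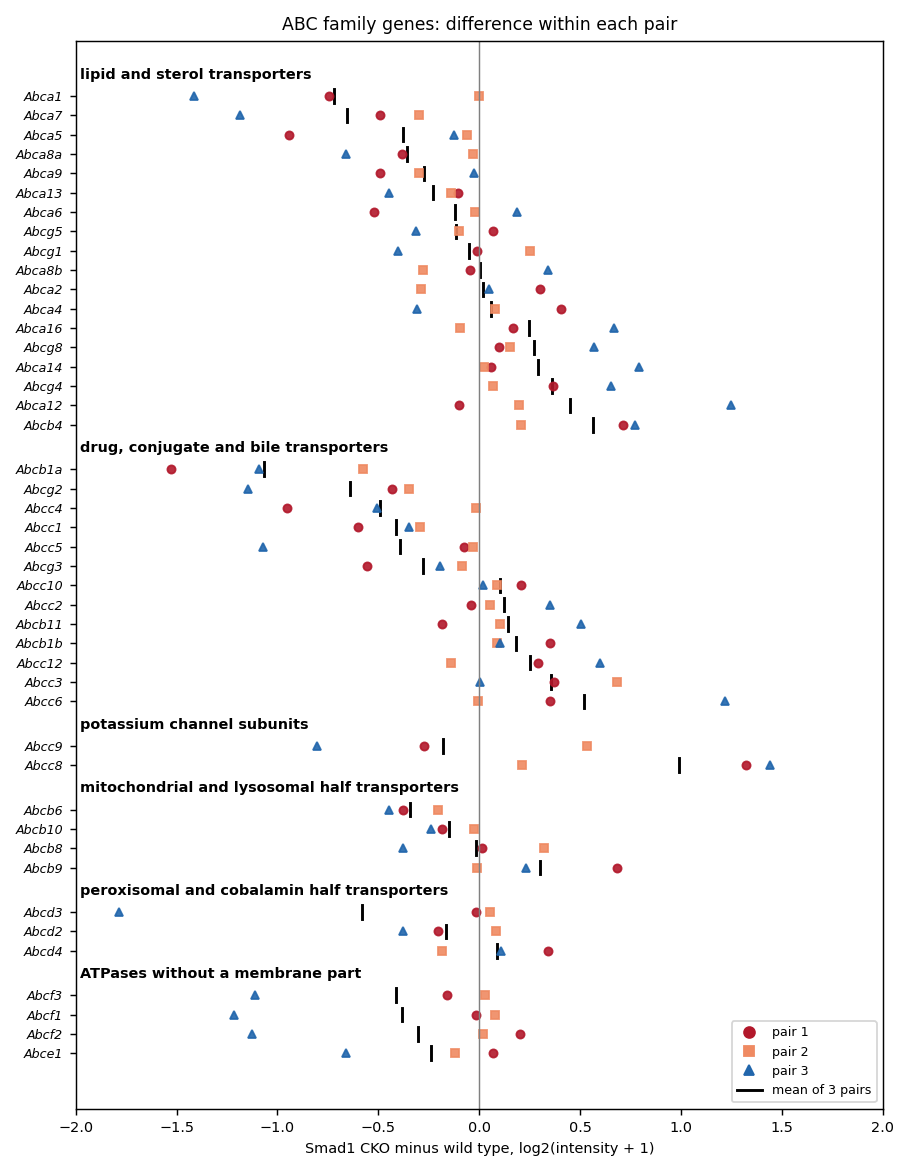
Difference between the Smad1 CKO and the wild type lung in each pair (x axis, log2) for the 44 ABC family genes (rows, grouped by role), with points for the 3 pairs and a bar for their mean. Abcb1a lay lowest, at -1.07 on average, and Abcc8 highest, at 0.99 (0.58 without Smad1 CKO 3). The triangles of pair 3 lay far from the other pairs for Abcd3 and the Abcf genes, each shown by its brightest probe set.

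Among exporters of drugs, conjugates and bile salts, Abcb1a had the largest difference of the family. Abcb1a encodes a P-glycoprotein, a drug efflux pump best known from the capillary endothelium of the brain, and rodents carry a second copy, Abcb1b. Abcb1a was at 6.28, 6.93 and 5.91 in CKO lungs 1 to 3, against 7.81, 7.51 and 6.999 in wild type lungs 1 to 3. Every CKO lung was lower than every wild type lung. On average Abcb1a differed by -1.07 ± 0.48 (here and below ± is the SD over 3 pairs), or 2.09-fold toward lower intensity in CKO lungs, with a 95% interval of -1.66 to -0.47 (limma, unadjusted p = 0.00489, adjusted p = 0.367). Its dimmer probe set had differences of -1.62, -0.63 and -1.95 in the 3 pairs, with a mean of -1.401. Without pair 3 the difference of Abcb1a was -1.05, without pair 1 it was -0.83, and after cyclic loess normalization it was -0.95, so its direction and approximate size did not rest on a single pair.

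Endothelial markers were lower beside Abcb1a. All 11 listed endothelial markers were lower in CKO lungs in all 3 pairs, where 29.3% of all genes were. Their median was -0.97, with medians of -0.72, -0.60 and -1.69 in pairs 1 to 3, and none of them passed across all probe sets. Their summed intensity was 14316, 13923 and 4457 in CKO lungs 1 to 3, against 21218, 21308 and 15074 in wild type lungs 1 to 3, and no marker was at 0. After cyclic loess normalization the median of these markers was -0.49, and 8 of 11 were lower in all 3 pairs, where 17.5% of genes were. The part of this in the value of Abcb1a was not tested. In whole lobes, fewer cells of a type and less RNA per cell cannot be told apart.

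Abcb1a, Abcb1b and Abcb4 lie next to each other on chromosome 5, with 0 other protein-coding genes between them, and their values did not share a direction. Abcb4, which in liver moves phosphatidylcholine into bile, was at 7.38, 6.72 and 7.73 in CKO lungs and at 6.67, 6.52 and 6.95 in wild type lungs. It was higher in each pair, by 0.71, 0.21 and 0.77, although CKO lung 2 lay within the range of the wild type lungs. The difference was 0.56 ± 0.31, with an unadjusted p of 0.0366 and an adjusted p of 0.367 in limma. Abcb1b had a mean difference of 0.18 ± 0.15 by its brighter probe set and -0.19 by the other, with mean levels of 4.56 in CKO and 4.38 in wild type lungs, below the median of the arrays (6.16), so no direction was settled. The reference promoters of these neighbours, 250 bases before to 50 after the start, are shown because the genes adjoin and yet differ in value. They come from RefSeq (GRCm38.p6, plus strand), at chr5:8566841-8567140 for Abcb1a, chr5:8797897-8798196 for Abcb1b and chr5:8893471-8893770 for Abcb4. Capitals mark the letters CAGAC on either strand (GTCTG on the other), a short element that Smad proteins are known to bind, and GGCGCC, a GC-rich element bound by Smads of the BMP branch.
Abcb1a promoter: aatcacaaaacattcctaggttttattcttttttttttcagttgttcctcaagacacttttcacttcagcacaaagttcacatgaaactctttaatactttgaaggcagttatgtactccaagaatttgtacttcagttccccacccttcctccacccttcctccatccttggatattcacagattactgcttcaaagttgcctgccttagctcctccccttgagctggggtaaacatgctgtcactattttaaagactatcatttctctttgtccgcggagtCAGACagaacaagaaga
Abcb1b promoter: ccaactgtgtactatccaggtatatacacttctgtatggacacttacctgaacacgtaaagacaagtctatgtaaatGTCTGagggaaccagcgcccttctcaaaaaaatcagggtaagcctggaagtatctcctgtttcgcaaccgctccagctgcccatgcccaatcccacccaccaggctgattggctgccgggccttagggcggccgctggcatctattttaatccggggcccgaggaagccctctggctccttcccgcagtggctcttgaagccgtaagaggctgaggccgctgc
Abcb4 promoter: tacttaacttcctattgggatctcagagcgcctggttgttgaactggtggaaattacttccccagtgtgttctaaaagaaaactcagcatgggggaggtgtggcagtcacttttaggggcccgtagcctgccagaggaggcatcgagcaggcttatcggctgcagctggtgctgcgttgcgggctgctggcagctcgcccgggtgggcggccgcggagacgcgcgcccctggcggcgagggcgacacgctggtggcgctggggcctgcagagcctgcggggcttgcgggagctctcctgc
The window of Abcb1a holds CAGAC once, that of Abcb1b holds its reverse complement once, and that of Abcb4 holds neither motif. The 3 windows also differ in composition: Abcb1a has 2 CG dinucleotides and 40.3% G and C, Abcb1b has 12 and 55.0%, and Abcb4 has 21 and 64.0%. For 34 members there were 41 promoter windows in the table. CAGAC on either strand occurred in 14 of these 41 (34.1%) and in 49.6% of all 32851 windows, and GGCGCC in 7 (17.1%) and in 11.9% of all. Member windows held a median of 16 CG dinucleotides and 57% G and C, against 7 and 52.7% in all windows. The part of this composition in the motif shares was not tested. Some windows of the same gene overlap, as for Abcf2. The motifs can share a single base, and each was counted on its own. These matches are a description of letters and not of binding.

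The other exporters had smaller differences. Abcg2, the breast cancer resistance protein that exports drugs and urate, was at 9.14, 9.44 and 7.94 in CKO lungs and at 9.58, 9.79 and 9.09 in wild type lungs. It was lower in each pair, but the ranges overlapped, and the difference was -0.64 ± 0.44 (limma, unadjusted p = 0.0343, adjusted p = 0.367). Without pair 3 it was -0.39, and after cyclic loess normalization -0.17. Abcc1, which exports glutathione conjugates and leukotriene C4, was at 7.22, 7.72 and 6.95 in CKO lungs and at 7.82, 8.02 and 7.30 in wild type lungs, with a difference of -0.42 ± 0.16 and pair values of -0.60, -0.30 and -0.35. Without Smad1 CKO 3 it was -0.24, and after cyclic loess -0.16. Abcc4, an exporter of cyclic nucleotides and prostaglandins, was at 5.70, 6.71 and 5.93 in CKO lungs and at 6.65, 6.72 and 6.43 in wild type lungs. Its difference of -0.49 ± 0.47 came from pairs 1 and 3, at -0.95 and -0.50, with -0.02 in pair 2, and it was -0.26 without pair 1. Abcc3, which exports glucuronides, was at 7.97, 8.33 and 7.26 in CKO lungs and at 7.60, 7.65 and 7.26 in wild type lungs. Its difference of 0.35 ± 0.34 was made by pairs 1 and 2, with 0.01 in pair 3, and it was 0.19 without pair 2 and 0.65 after cyclic loess. Of the 13 genes in this group, 6 were lower in all 3 pairs, 3 were higher (Abcc3, Abcc10 and Abcb1b) and 4 were mixed. The 6 include Abcc5 at -0.39 and Abcg3 at -0.28. These shares were 46.2% lower and 23.1% higher, against 29.3% and 21% of all genes. The median difference of the 13 genes was 0.10, against -0.09 over all genes. It was -0.02 after cyclic loess, against 0.05 over all genes. After cyclic loess 4 were lower in all 3 pairs and 1 was higher, against 17.5% and 23.6% of all genes. The value of Abcc5 came from pair 3, at -1.07, and it was -0.05 without that pair and 0.06 after cyclic loess. The dimmer probe set of Abcg3 was at 0.50, and the mean of both gave 0.11, so the direction of Abcg3 depended on the probe set. The 4 mixed genes were Abcc6 at 0.52, Abcc12 at 0.25, the bile salt pump Abcb11 at 0.14 and Abcc2 at 0.12.

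**Figure D2:**
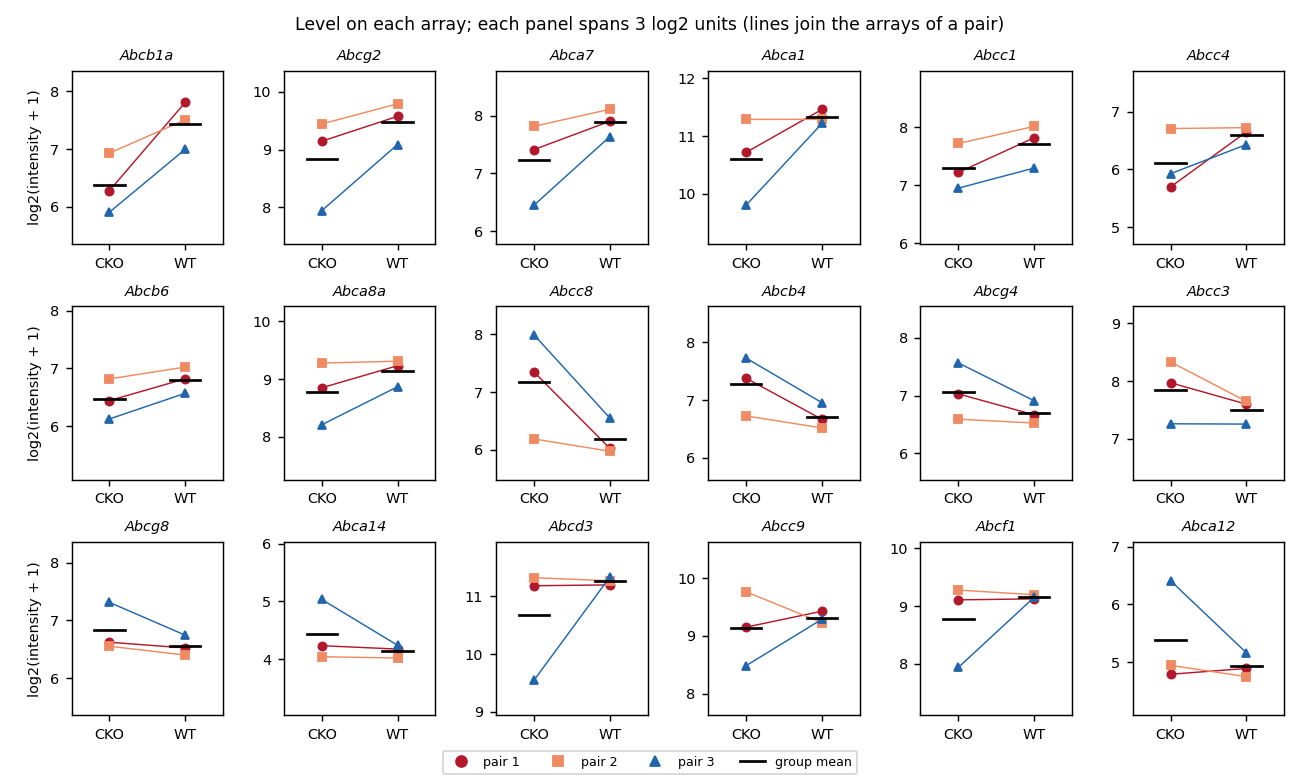
Level (log2(intensity + 1)) of 18 ABC family genes in Smad1 CKO lungs (left in each panel) and wild type lungs (right), with a line joining the arrays of each pair and bars for the group means. Abcb1a shows no overlap of the groups, Abcc8 shows 2 high CKO arrays and 1 at the wild type level, and Abcd3 shows 1 low CKO array beside 2 at the wild type level.

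Genes of lipid and sterol transport had differences in both directions. Of the 18 genes, 6 were lower in all 3 pairs (33.3%), 4 were higher (22.2%) and 8 were mixed, and the median was -0.02. Over all genes these shares were 29.3% lower and 21% higher. Abca1, which passes cholesterol and phospholipid to apolipoprotein A-I, was at 10.72, 11.29 and 9.80 in CKO lungs and at 11.46, 11.29 and 11.22 in wild type lungs. The lungs of pair 2 had the same level to 2 decimals (difference -0.0009), and the mean of -0.72 ± 0.71 came from the other pairs. Its dimmer probe sets gave -0.53 and -0.56, each with a value above 0 in pair 2. Abca1 was at -0.37 without pair 3 and at -0.13 after cyclic loess. Abca7, a related lipid transporter studied in phagocytosis, was at 7.41, 7.81 and 6.45 in CKO lungs and at 7.90, 8.11 and 7.64 in wild type lungs. Its pair values were -0.49, -0.30 and -1.19 and the mean was -0.66 ± 0.47 (limma, unadjusted p = 0.0348, adjusted p = 0.367). Both without pair 3 and after cyclic loess normalization Abca7 was at -0.39.

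Abca8b, Abca8a, Abca9, Abca6 and Abca5 form a row of 5 neighbours on chromosome 11. Their differences were 0.01, -0.36, -0.27, -0.12 and -0.38 in that order along the chromosome. Abca8a was at 8.85, 9.28 and 8.21 in CKO lungs and at 9.23, 9.31 and 8.87 in wild type lungs, with -0.03 in pair 2 and a mean of -0.36 ± 0.31, which became 0.10 after cyclic loess normalization. Abca5 had -0.95 in pair 1 and -0.06 and -0.13 in the others, and its dim probe set was at 0.21. Abca9 likewise had 2 probe sets of opposite sign, at -0.27 and 0.25.

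The sterol transporters of the Abcg subfamily had small differences in the values as deposited, and some were larger after cyclic loess. Abcg1, which exports cholesterol to lipoproteins and is prominent in lung macrophages, had a difference of -0.05 ± 0.33. After cyclic loess Abcg1 was at 0.39 (limma, unadjusted p = 0.0399), higher in all 3 pairs, where 23.6% of genes were. Abcg4, a close relative known from brain, was at 7.03, 6.59 and 7.57 in CKO lungs and at 6.67, 6.53 and 6.91 in wild type lungs, higher in each pair by 0.36 ± 0.29 on average, while its dimmer probe set gave -0.03. It was at 0.21 without pair 3, 0.11 without Smad1 CKO 3 and 0.47 after cyclic loess (limma, unadjusted p = 0.045). Abcg5 and Abcg8, neighbours on chromosome 17 whose proteins form 1 dimeric exporter of plant sterols, had -0.12 ± 0.19 and 0.27 ± 0.26. Abcg8 was at 6.62, 6.55 and 7.31 in CKO lungs and at 6.52, 6.40 and 6.74 in wild type lungs, and its difference was 0.13 without pair 3. Of 8 listed macrophage markers, measured beside these genes, 3 were lower in all 3 pairs, where 29.3% of genes were, and 5 were mixed. These markers had a median of -0.29 and, without pair 3, of -0.25. Their summed intensity was 7984, 8932 and 3370 in CKO lungs against 14157, 15349 and 9486 in wild type lungs. Their part in the values of Abca1 and Abcg1 was not tested.

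Among dimmer lipid transporters, Abca12, Abca13, Abca14 and Abca16 had their largest values in pair 3. Abca12, which loads lipid into lamellar granules of the skin, was at 4.79, 4.94 and 6.41 in CKO lungs and at 4.89, 4.75 and 5.16 in wild type lungs, so 1 CKO array stood above the other 5. Its difference was 0.45 ± 0.71 over 3 pairs and 0.05 without pair 3. Abca14 was at 4.23, 4.04 and 5.03 in CKO lungs and at 4.17, 4.02 and 4.24 in wild type lungs, and its difference of 0.29 ± 0.43 became 0.04 without pair 3. Abca16 was at 0.25, and Abca13 at -0.23 with all CKO arrays lower than the wild type arrays. The retinal transporter Abca4 was at 0.06 and Abca2, of brain myelin, at 0.02. In pair 1 Abca4 and Abca2 were at 0.40 and 0.30, and in pair 3 at -0.31 and 0.05. In wild type lungs 29 members had a mean level above the array median and 15 had not. No detection call was used, and whether the dim ones were above background was not tested.

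The 2 subunits of ATP-sensitive potassium channels differed from each other. Abcc8, the sulphonylurea receptor of pancreatic beta cells and neurons, was at 7.35, 6.19 and 7.99 in CKO lungs and at 6.03, 5.98 and 6.55 in wild type lungs. CKO lungs 1 and 3 were above every wild type lung, while CKO lung 2 lay among them. On average Abcc8 differed by 0.99 ± 0.68, or 1.99-fold toward higher intensity in CKO lungs, with a 95% interval of 0.27 to 1.71 (limma, unadjusted p = 0.0152, adjusted p = 0.367). Without Smad1 CKO 3, in a fit without pairs, Abcc8 was at 0.58 with an unadjusted p of 0.16 in limma, and with all arrays unpaired its p was 0.0682. Its dimmer probe set did not share this difference: it had 0.94, -0.13 and -0.02 in the 3 pairs. Abcc9, the receptor of vascular smooth muscle, was at 9.15, 9.76 and 8.48 in CKO lungs and at 9.43, 9.23 and 9.29 in wild type lungs, higher in pair 2 and lower in the others. Its mean was -0.18 ± 0.67 and its 3 probe sets gave values from -0.63 to 0.16. The channel pores these receptors join had mixed directions over the pairs, with 0.25 for Kcnj11, the usual partner of Abcc8, and 0.09 for Kcnj8, that of Abcc9. After cyclic loess normalization both were higher in every pair, Kcnj11 by 0.29, 0.25 and 1.61 (mean 0.72, limma, unadjusted p = 0.0527) and Kcnj8 by 0.34, 0.67 and 0.54 (mean 0.52, unadjusted p = 0.0147, adjusted p = 0.336). After cyclic loess 23.6% of all genes were higher in every pair. Listed pericyte and smooth muscle markers were lower in all 3 pairs for 3 of 9, higher for 1 and mixed for 5. In the same values as deposited, 29.3% of all genes were lower in all 3 pairs and 21% higher. The median of these markers was -0.35, and -0.02 without pair 3. Their summed intensity was between 5247 and 12545 in CKO lungs and between 11002 and 12745 in wild type lungs, and their part in the value of Abcc9 was not tested.

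Transporters of mitochondria and lysosomes had small differences in the values as deposited. Abcb6, which carries porphyrins, was at 6.44, 6.82 and 6.12 in CKO lungs and at 6.82, 7.02 and 6.57 in wild type lungs. It was lower in each pair by a similar amount, -0.38, -0.21 and -0.44, and the mean was -0.34 ± 0.12 (limma, unadjusted p = 0.115), or -0.17 without Smad1 CKO 3. Abcb10, which serves haem synthesis in mitochondria, was at -0.15 ± 0.11, but its 3 probe sets ran from -0.34 to 0.60. Abcb8 was at -0.01 ± 0.35, and Abcb9, a lysosomal peptide transporter, at 0.30 ± 0.35 with all 3 probe sets between 0.28 and 0.31. After cyclic loess normalization Abcb8 and Abcb9 were at 0.39 and 0.54. Of the 4 genes, 3 were then higher in all 3 pairs, where 23.6% of genes were. Erythroid markers, listed because red cells make much haem, were lower in all 3 pairs for 3 of 5 measured, higher for 1 and mixed for 1. Their median was -0.16. Of all genes, 29.3% were lower in all 3 pairs and 21% higher.

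Among peroxisomal transporters and the ATPases without a membrane part, the largest values were those of pair 3, except for Abcd4. Abcd3, which brings branched-chain and bile acid precursors into peroxisomes, was at 11.18, 11.32 and 9.55 in CKO lungs and at 11.20, 11.27 and 11.33 in wild type lungs. CKO lungs 1 and 2 differed from their wild type partners by -0.01 and 0.05, and CKO lung 3 by -1.79. The mean of -0.58 ± 1.04 became 0.02 without pair 3 and 0.01 after cyclic loess normalization. Abcf1, a factor of translation initiation, was at 9.11, 9.28 and 7.94 in CKO lungs and at 9.13, 9.20 and 9.16 in wild type lungs, with -0.02, 0.08 and -1.21 in the pairs. Abcf2, Abcf3 and the ribosome recycling factor Abce1 had -1.13, -1.11 and -0.66 in pair 3, and between -0.16 and 0.20 in the other pairs. These values depended on the probe set. In pair 3 the other probe set of Abcf2 was at 0.47 and those of Abcf3 at -0.11 and 0.16. The dimmer probe sets of Abcf1 ran from -0.71 to 0.90 in that pair. A second Abce1 probe set of nearly the same brightness was at -0.26, -0.01 and -1.95, below 0 in each pair. The very long chain acyl-CoA transporter Abcd2 was at -0.17 and the cobalamin transporter Abcd4 at 0.09. Abcd4 had 0.34, -0.18 and 0.11 in the 3 pairs. By its brightest probe set, none of these 7 genes had a common direction in all 3 pairs.

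In pair 3 the sign of a member's difference went with the brightness of its probe set. By their brightest probe set, all 11 members in the brightest tertile of genes were lower in CKO lung 3. Their median was -0.80, and that of all genes there was -1.09. The second-brightest probe sets in pair 3 were at -1.26 for Abca1 and -1.95 for Abce1. Those of Abcf1, Abcc5 and Abcc9 were at -0.08, -0.05 and 0.06. Of the 15 members in the dimmest tertile 4 were lower, with a median of 0.34, against 0.36 over all genes there. In pair 1 the median of all genes was 0.25 in the dimmest and -0.29 in the brightest tertile. Members had medians of 0.06 and -0.07 there. Values without pair 3 still hold the trend of pair 1. Across the 44 members the difference and the mean wild type level had a Pearson correlation of -0.73 in pair 3, -0.27 in pair 1 and 0.05 in pair 2, as a description of genes that share the same arrays. The 18S RNA and beta-actin controls given above also set CKO 3 apart, and their part in these differences was not tested. Abcb1a lay below and Abcc8 above the brightness curve of all genes in each pair.

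**Figure D3:**
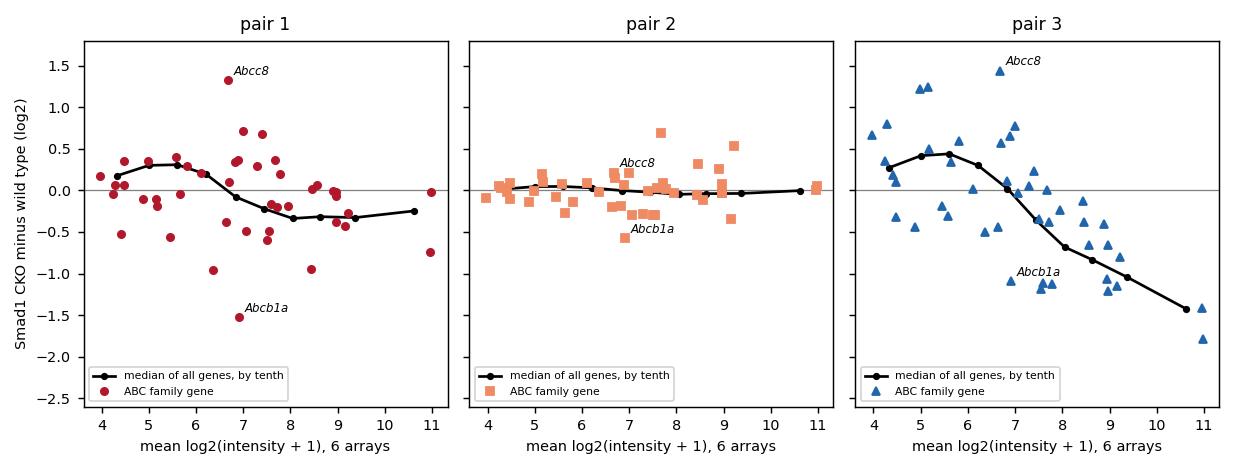
Difference between the Smad1 CKO and the wild type lung (y axis, log2) against the mean level over 6 arrays (x axis) in each pair, with a point for each of the 44 ABC family genes and a black line for the median of all genes in each decile of brightness. The line is nearly flat in pair 2 and reaches -1.42 in the brightest decile in pair 3. There all 11 members of the brightest tertile lay under 0, each by its brightest probe set. In pair 1 it falls from 0.31 in decile 3 to -0.34 in decile 7.

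After cyclic loess normalization the counts turned toward higher values. The median of all genes was then 0.05, where it had been -0.09, and that of the members was 0.04. Relative to all genes the members' median was -0.02 before and -0.01 after. In all 3 pairs 10 members were lower, against a background of 17.5% of genes, and 11 were higher, against 23.6%. An unadjusted p under 0.05 was reached by 3 lower members, Abcb1a, Abcc4 and Abcg3 (the last by its brighter probe set alone), where 6.25% of genes did so, and by 7 higher members, where 8.82% did so. The 7 were Abcc8 (1.05), Abcb4 (0.71), Abcc3 (0.65), Abcb9 (0.54), Abcg4 (0.47), Abcg1 (0.39) and Abcb8 (0.39). None passed after adjustment (limma, lowest adjusted p = 0.336), where 0.00444% of probe sets did. Abcc3 then had 0.66, 0.73 and 0.55 in the 3 pairs, which lay closer together than before. Without pair 3, where 0.0622% of probe sets passed, the lowest adjusted p of a member was 0.448, and 3 members had an unadjusted p under 0.05. Abcb1a was lower, where 6.19% of genes were called so, and Abcc8 and Abcc3 were higher, where 3.53% were.

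**Figure D4:**
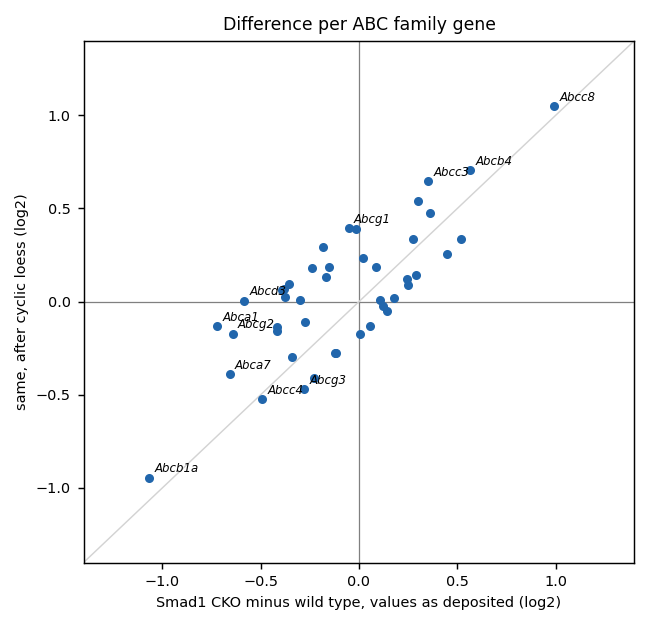
Mean difference of 3 pairs for each of the 44 ABC family genes, with the values as deposited on the x axis and after cyclic loess normalization on the y axis (both log2, Smad1 CKO minus wild type; the grey diagonal marks equal values). Abcb1a, Abcc8 and Abcb4 stay near the diagonal, while Abca1, Abcg2 and Abcd3 move close to 0.

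Probe sets of the same gene often disagreed. The 44 members had 89 probe sets, 0 of which passed after adjustment (lowest adjusted p = 0.367 in limma). Of the 25 members with more than one, 12 had all probe sets on the same side of 0 and 13 had not. The 10 probe sets of Abcc5, a cyclic nucleotide exporter, ran from -0.39 to 0.22, and the brightest, used above, was the lowest of them. The 6 of Abcf1 ran from -0.38 to 0.48, also with the brightest at the low end.

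**Figure D5:**
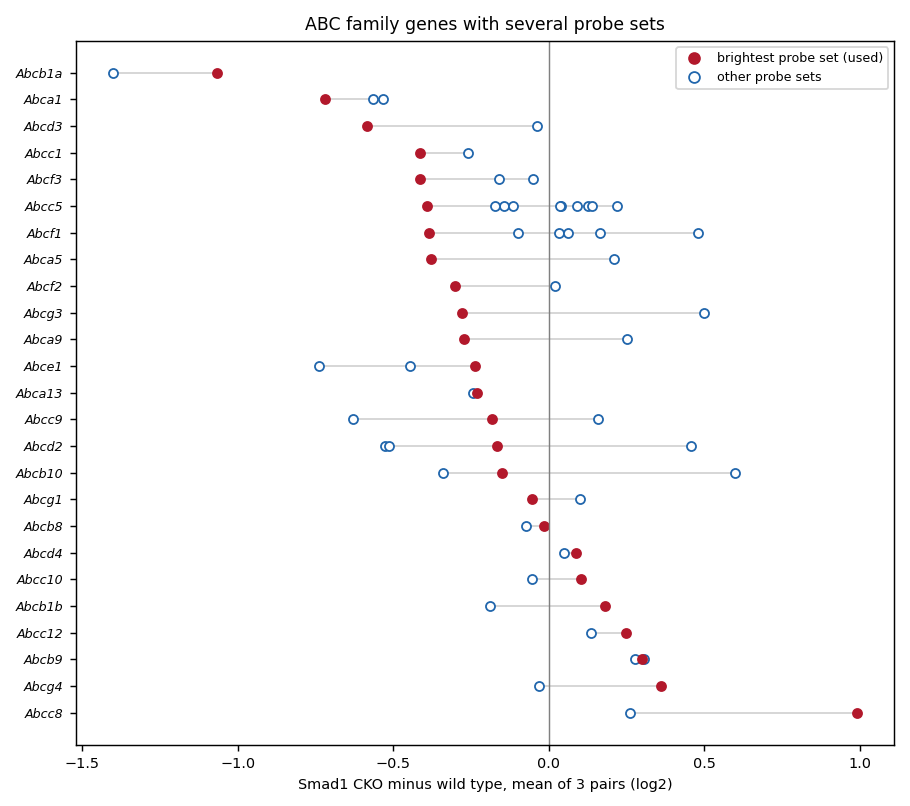
Mean difference of 3 pairs (x axis, log2, Smad1 CKO minus wild type) for every probe set of the 25 ABC family genes with several, with the brightest probe set filled and the others open. Both probe sets of Abcb1a lay below -1, and those of 13 genes lay on both sides of 0.

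Genes that work with ABC proteins were read from lists by function. None of their members passed across all probe sets. Of 14 measured genes of sterol and lipid efflux, 7 were lower in all 3 pairs, 1 was higher and 6 were mixed, where 29.3% of all genes were lower. The median was -0.38, and it was -0.12 without pair 3 and 0.10 after cyclic loess normalization. Npc1, which moves cholesterol out of lysosomes, had -1.58, -0.49 and -2.03 in the 3 pairs (mean -1.36, and -1.02 after cyclic loess). Pltp, a phospholipid transfer protein, was at -0.93, and at -0.31 after cyclic loess. Apoa1, the acceptor of lipid from Abca1, was higher in each pair by 1.39, 0.20 and 0.88 (mean 0.82). Of 7 xenobiotic regulators 2 were lower, 2 were higher and 3 were mixed, and the median was 0.0006, and 0.32 after cyclic loess. Ahr, the aryl hydrocarbon receptor, was at -0.89, and at -0.45 without pair 3 and -0.28 after cyclic loess. Keap1 was at -0.47, -0.19 and -0.09 in the same 3 settings, and Nr1i2, the pregnane X receptor, at 0.56, 0.44 and 0.38. Of 13 genes of peroxisomal beta-oxidation and import 5 were lower, 3 were higher and 5 were mixed, with the biogenesis factors Pex3 at -0.94 and Pex19 at -0.58 and the thiolase Acaa1a at 0.91. Without pair 3 these were at -0.49, -0.38 and 0.50.

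The medians of the next 3 lists lay lowest in pair 3 and near 0 after cyclic loess normalization, at -0.02, -0.05 and -0.05, and their shares lower in all pairs stand beside 29.3% of all genes. For 12 genes of mitochondrial iron-sulphur and haem synthesis 4 were lower in all pairs, 1 was higher and 7 were mixed, with medians of -0.32, 0.02 and -1.09 in pairs 1 to 3 and with Alas2, of red cell haem synthesis, at -1.12, Fech at -0.79 and Cpox at -0.68. Of 8 genes of peptide loading 3 were lower and 5 mixed (Psmb8 at -0.48, Tapbp at -0.67 and Psmb9 at -0.29), with pair medians of -0.09, 0.07 and -1.21. Of 8 genes of ribosome recycling and translation start 2 were lower and 6 mixed (Denr at -0.49 and Gcn1 at -0.33), with pair medians of -0.21, 0.02 and -1.34. The 3 ABC proteins named otherwise were also read. Tap1 and Tap2, which carry peptides to class I molecules, had -0.52 and -0.22 and were lower in each pair, and Cftr, the epithelial chloride channel, had -0.51, 0.22 and -1.38 in the 3 pairs.

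Markers of other lung cell types were measured on the same arrays, and their part in the values above was not tested. All 8 alveolar type 1 markers and 7 of 8 measured type 2 markers were lower in all 3 pairs. Their medians were -1.01 and -1.38, and -0.42 and -0.82 without pair 3. Of all genes, 29.3% were lower in all 3 pairs and 21% higher. After cyclic loess normalization 6 of 8 type 1 and 5 of 8 type 2 markers were lower in all pairs, where 17.5% of genes were. Club cell markers had a median of -0.63 and ciliated markers of -0.20, and without pair 3 these were -0.03 and -0.04. Fibroblast markers had -0.57 and lipofibroblast markers -0.44, and without pair 3 they had -0.04 and 0.10. Mesothelial markers had a median of -0.63 with and without pair 3. Of 5 mast cell markers 1 was lower in all 3 pairs (Kit at -1.39), 2 were higher (Cma1 at 1.07 and Tpsb2 at 0.70) and 2 were mixed. The median of the mast cell markers was 0.63, and it was 0.56 without pair 3 and 0.44 after cyclic loess normalization. Their summed intensity went the other way and was lower in each pair. It was 807, 1080 and 650 in CKO lungs, against 1464, 1653 and 982 in wild type lungs.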

How the data were processed

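Each array held 1 left lung lobe. The deposited values are intensity per probe set on a linear scale, and RMA is named per the submitters' processing notes, with software and settings not given in the sources used here. From them log2(value + 1) was computed, and 64 control probe sets were left out. Of 45037 others, 34945 had 1 gene symbol, 932 several (tested, not named) and 9160 none. All 44 members matched the current gene table by identifier. Genotype was fitted with limma 3.58.1 in R 4.3.3 (lmFit, eBayes, pair as a fixed block, two-sided), which was tested on simulated data. Pairs come from the design text and array names. Deviations from group means correlated at 0.258, 0.604 and 0.597 within pairs, and at 0.215 or lower between them. Exact permutation of 3 pairs cannot go below 0.25. Members, roles, partner and marker lists were chosen with earlier results of these data known. Values on every array are given for up to 8 members lower and 6 higher in all pairs by smallest p, the 5 with the highest wild type values and the 3 of mixed direction with the widest range. From other lists up to 3 of one direction are named, and others named were chosen after their values were seen. Alternatives changed pairs, normalization, pseudocount, filter, prior and probe sets.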

Additional observations from a re-analysis of the deposited data

How the results depend on the processing

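With 3 arrays per genotype and no detection calls, depth here means signal over background, which limits the dim members. Under all 12 alternatives 0 members passed the adjusted threshold (limma, lowest adjusted p = 0.179). Of the 18 members given on every array, 12 kept their direction throughout. The median difference of -0.12 was 0.0121 after quantile normalization, 0.0420 after cyclic loess, 0.0010 with the mean of all probe sets and 0.0694 with cyclic loess without pair 3, which was added after seeing the data, and it ran from -0.19 to 0.0054 when a pair or array was left out. Members lower in all pairs numbered 9 with the mean of probe sets (26.6% of genes), against 14, and leaving out a pair gave 16 to 20 lower (33.1% to 46.8% of genes) and 11 to 14 higher (26.2% to 33.5%). Members at an unadjusted p under 0.05, 3 lower and 2 higher, became 1 and 0 without the replicate block (3.01% and 0.973% of genes), 1 lower after quantile normalization (4.96%), 7 higher after cyclic loess (8.82%), 1 higher without the dimmest probe sets (4%), and 1 lower and 1 higher with cyclic loess without pair 3 (4.12% and 3.13%). They ran from 0 to 5 lower and from 0 to 2 higher when a pair or array was left out. With pair 3 out 1 was lower (6.19% of genes), with pair 1 out 0 in either direction (1.76% and 0.17%), with pair 2 out 5 lower (18.7%), and with Smad1 CKO 3 alone out 1 in each direction (2.54% and 1.42%).

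Directions turned for 6 of the 18. Abcc9 was at 0.22 after quantile normalization, 0.29 after cyclic loess and 0.31 with cyclic loess without pair 3. Abca8a was at 0.0181 and 0.0958 after quantile and cyclic loess. Abcd3 was at 0.0050 and Abcf1 at 0.0704 after cyclic loess, and they were at 0.15 and 0.22 with cyclic loess without pair 3. Abca12 and Abca14 were then at -0.0637 and -0.0412. With the mean of probe sets Abcf1 was at 0.0425. Leaving out a pair or array gave -0.54 to 0.14 for Abcc9, -0.90 to 0.0188 for Abcd3, -0.62 to 0.0342 for Abcf1, -0.0664 to 0.72 for Abca12 and -0.0069 to 0.43 for Abca14. Among the other 26 members 55 of 304 values turned. The causes were not tested.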
